A study of Mus musculus with 12 samples.

Results

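Endothelial marker genes were examined as a group of 10 genes, Pecam1, Cdh5, Kdr, Flt1, Tek, Tie1, Eng, Nos3, Vwf and Fabp4, chosen by symbol from the 33641 genes listed for each sample. All 10 were listed in every sample and all 10 passed the filter for testing, set at a mean of 0.5 TPM or more, which 12526 genes passed. Messenger RNA had been sequenced from 12 mouse ventricle samples, 3 each from the left ventricle (LV) and the right ventricle (RV) of WT-PLN mice and of R14del-PLN mice. Both genotypes carried a human phospholamban (PLN) coding sequence knocked into the start codon of mouse Pln. The cassette began with a floxed H2B-GFP and polyA stop, and the chimeras were bred to Sox2-Cre mice, in which Cre acts in the early embryo and so throughout the animal. WT-PLN mice carried the human WT sequence, while R14del-PLN mice were heterozygous (R14del/WT) for a sequence that lacks arginine 14 and carried the label KO. The mice were 12 to 14 weeks old, are given no treatment in the labels, and are labelled as strain C57BL/6J, although the study describes a hybrid line from 129/Sv-CP and C57Bl/6J chimeras. The samples of a group are described as coming from 3 mice, and whether LV and RV samples with the same number share a mouse is not stated.

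Endothelial cells line every blood vessel, the lymphatics and the chambers of the heart, and they form the dense capillary bed that lies beside each cardiomyocyte. They hold together through adhesion molecules, grow and survive through vascular endothelial growth factor (VEGF) and angiopoietin signals, control vessel tone through nitric oxide, keep von Willebrand factor ready for haemostasis and pass fatty acids to the heart muscle. The markers examined here stand for these functions. In whole ventricle, a lower value can mean fewer endothelial cells, less RNA per cell or more RNA from other genes. Each value is a share of a fixed total, and these readings cannot be told apart.

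The promoters of 5 of the 10 genes (Kdr, Flt1, Tie1, Tek and Eng) were held in the promoter table of RefSeq (GRCm38.p6). Of these, 3 are printed as examples, although no marker passed the test in any comparison described below. Kdr and Flt1 are the VEGF receptors, whose values differed in opposite directions between genotypes, and Tek is the angiopoietin receptor, whose values did not overlap between ventricles in WT-PLN hearts or between genotypes in the RV. Each sequence is the 250 bases before the RefSeq transcription start, 5′ to 3′ on the strand of the gene, which is the minus strand for Kdr and Flt1 and the plus strand for Tek. The Kdr window lies at chr5:75978456-75978705, the Flt1 window at chr5:147726012-147726261 and the Tek window at chr4:94739039-94739288. Capitals mark GGAA, the core bound by ETS factors such as Erg and Fli1, on either strand (TTCC is its reverse complement).
Kdr: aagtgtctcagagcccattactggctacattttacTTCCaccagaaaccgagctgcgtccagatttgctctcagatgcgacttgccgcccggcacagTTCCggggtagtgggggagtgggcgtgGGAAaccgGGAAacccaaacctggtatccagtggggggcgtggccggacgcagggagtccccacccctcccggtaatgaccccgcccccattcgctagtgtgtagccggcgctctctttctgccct
Flt1: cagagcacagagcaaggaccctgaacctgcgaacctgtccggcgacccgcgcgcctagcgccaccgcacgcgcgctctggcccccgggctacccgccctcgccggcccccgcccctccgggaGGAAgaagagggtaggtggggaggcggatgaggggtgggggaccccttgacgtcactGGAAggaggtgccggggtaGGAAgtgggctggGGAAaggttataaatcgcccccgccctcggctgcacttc
Tek: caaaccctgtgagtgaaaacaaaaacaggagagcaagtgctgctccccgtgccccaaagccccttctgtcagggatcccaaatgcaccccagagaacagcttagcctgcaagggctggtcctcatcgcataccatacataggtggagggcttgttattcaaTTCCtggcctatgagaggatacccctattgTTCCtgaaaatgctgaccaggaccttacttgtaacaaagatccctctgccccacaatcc
The window of Tie1 held 7 matches, those of Kdr and Flt1 held 4 each, that of Eng held 3 and that of Tek held 2. Such matches are common, since 93.5% of 32851 windows of this length held at least 1, with a median of 3. The longer string AGGAAG, which contains GGAA, was matched on either strand in 29.5% of all windows. It was matched 2 times in Flt1, 2 times in Eng, 1 time in Tie1 and 0 times in Kdr and in Tek. The G and C content was 61.6% in the Kdr window, 70.4% in the Flt1 window and 51.2% in the Tek window.

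Values were deposited as TPM (the share of all transcripts that belongs to a gene, after scaling by gene length), and those of each sample sum to 1000000, so the sequencing depth is unknown. Pln was at 1660 to 1963 TPM in the WT-PLN samples and at 1559 to 1811 TPM in the R14del-PLN samples, and does not tell the human alleles apart. Both samples of WT-PLN replicate 1 went against the male sex that the study states for its mice, with 4 Y-linked genes at 0.0159 to 0.191 TPM, compared with 3.03 to 30.6 TPM in the other 10 samples. Summed markers of atrial cardiomyocytes (Sln, Myl4, Myl7 and Bmp10) were at 378 to 659 TPM in LV WT-PLN replicate 3, RV WT-PLN replicate 2 and RV R14del-PLN replicate 2, and were at most 84.4 TPM elsewhere. RV R14del-PLN replicate 3 carried another sequencing run number than the other 11 samples. The 13 mitochondrially encoded genes took 37.3% to 54.5% of all TPM, with the lowest share in LV R14del-PLN replicate 3. As a check of tissue, 9 cardiomyocyte markers summed to 32670 TPM or more in every sample and all 10 endothelial genes were above 3 TPM in every sample.

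The level of the markers spanned a wide range. Fabp4, a fatty acid binding protein of capillary endothelium and of adipocytes, had a mean of 422.5 TPM over the 12 samples. That was 12.2-fold above the next gene, Eng, an auxiliary receptor for BMP and TGF-beta ligands, at 34.8 TPM. Pecam1 followed at 30.6 TPM, Cdh5 at 26.8, Flt1 at 18.1, Kdr at 13.7, Tie1 at 12.9, Tek at 8.81, Vwf at 7.70 and Nos3 at 4.50 TPM. Only Fabp4 and Eng, as neighbours in this order, had ranges over the 12 samples that did not overlap. Fabp4 alone made up 67.4% to 76.3% of the summed TPM of the 10 genes, so sums over the group mostly describe Fabp4.

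**Figure D1:**
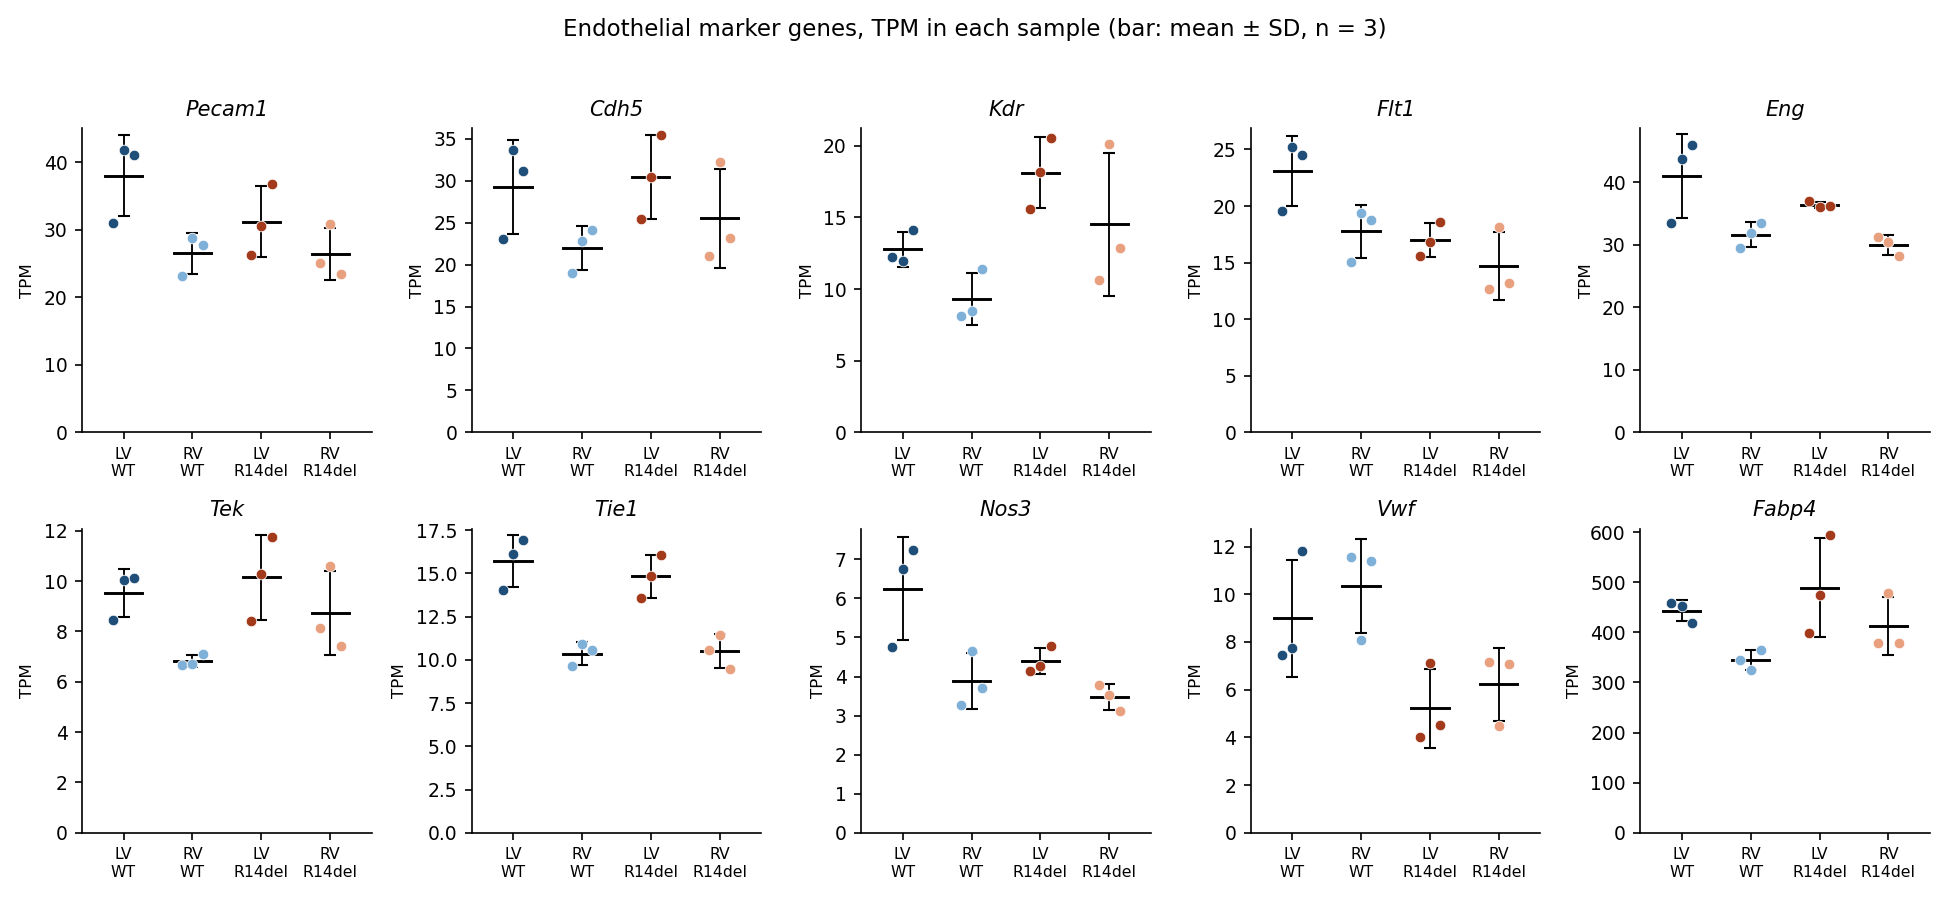
TPM (vertical axes, from 0) of the 10 endothelial marker genes in the LV and RV of WT-PLN and R14del-PLN hearts; points are samples, bars the mean and SD of 3 samples. Tie1 was at 14.1 to 17.0 TPM in LV WT-PLN and 9.63 to 10.9 TPM in RV WT-PLN, and Vwf was at 7.44 to 11.8 TPM in WT-PLN and 4.04 to 7.18 TPM in R14del-PLN hearts.

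The comparison of the ventricles in WT-PLN hearts asks whether the control RV and LV differ in these markers. In the RV, 9 of the 10 genes had a lower mean than in the LV, Vwf being the exception, and the largest differences were in Nos3 and Tie1. None passed the test, which was limma on log2(TPM + 1) with an adjusted p no higher than 0.05 together with a fold change of 1.5 or more. The test called 0 of 12526 genes here (0%), and 1811 genes had an unadjusted p of at most 0.05. At an unadjusted p of at most 0.05, 7 of the 10 markers were lower in the RV (13.8% of all genes), and 8 of 10 had values in the RV that all lay below those in the LV (25.2% of all genes). The first of these counts fell to 4 without LV WT-PLN replicate 2 (9.13% of all genes) or RV WT-PLN replicate 1 (7.6%), with Pecam1, Tek, Tie1 and Nos3 in both cases. A log2 fold change below 0 was found for 9 of 10 markers and for 85.9% of all genes.

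Among the adhesion molecules, Pecam1 (CD31) joins endothelial cells to each other and senses flow. It was at 31.1, 41.9 and 41.0 TPM in LV WT-PLN replicates 1 to 3 and at 23.1, 28.8 and 27.7 TPM in RV WT-PLN replicates 1 to 3. The groups did not overlap, and the log2 fold change was -0.50 (SE 0.16, adjusted p = 0.262). Cdh5, the VE-cadherin of adherens junctions, was at 23.0, 33.7 and 31.1 TPM in the LV and 19.0, 22.8 and 24.1 TPM in the RV. Replicate 1 was the lowest of each ventricle, the groups overlapped, and the log2 fold change was -0.39 (SE 0.19, adjusted p = 0.354).

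Of the VEGF receptors, Kdr (VEGFR2) transmits most of the growth signal of VEGF-A in endothelium. It was at 12.2, 11.9 and 14.1 TPM in LV WT-PLN and 8.12, 8.43 and 11.4 TPM in RV WT-PLN. Flt1 (VEGFR1) binds VEGF-A tightly and limits what reaches Kdr. It was at 19.6, 25.2 and 24.5 TPM in the LV and 15.1, 19.4 and 18.8 TPM in the RV. Neither receptor overlapped between the ventricles, with log2 fold changes of -0.43 for Kdr (SE 0.20) and -0.36 for Flt1 (SE 0.16), and with adjusted p values of 0.349 and 0.323.

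The TIE receptors are the receptor tyrosine kinases of the angiopoietins, with Tek (TIE2) as the one that binds them and Tie1 as its partner. Tie1 was at 14.1, 16.1 and 17.0 TPM in LV WT-PLN and at 9.63, 10.9 and 10.6 TPM in RV WT-PLN. The gap between the groups was wider than the range of either, and the log2 fold change was -0.55 (SE 0.12, unadjusted p = 0.000496, adjusted p = 0.177). Tek was at 8.45, 10.1 and 10.1 TPM in the LV and 6.65, 6.71 and 7.11 TPM in the RV. The 3 RV samples lay close together and below the LV, and the log2 fold change was -0.43 (SE 0.15, adjusted p = 0.288).

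Eng, the auxiliary receptor for BMP and TGF-beta ligands, was at 33.4, 43.7 and 46.0 TPM in LV WT-PLN and 29.5, 31.9 and 33.4 TPM in RV WT-PLN. The highest RV sample, at 33.42 TPM, lay just below the lowest LV sample, at 33.44 TPM, and the log2 fold change was -0.36 (SE 0.13, adjusted p = 0.288). Nos3, the endothelial nitric oxide synthase, was at 4.76, 6.75 and 7.25 TPM in the LV and 3.26, 4.67 and 3.71 TPM in the RV. Its log2 fold change was -0.56 (SE 0.16, adjusted p = 0.217). Fabp4 was at 458.5, 452.5 and 419.2 TPM in the LV and at 345.7, 325.3 and 364.6 TPM in the RV, with groups that did not overlap and a log2 fold change of -0.36 (SE 0.15, adjusted p = 0.307).

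Vwf, the von Willebrand factor that endothelial cells store in Weibel-Palade bodies, was the exception. It was at 7.44, 7.73 and 11.8 TPM in LV WT-PLN and at 11.6, 8.08 and 11.4 TPM in RV WT-PLN. The groups overlapped, and the log2 fold change was 0.19 (SE 0.23, 95% interval -0.30 to 0.69, adjusted p = 0.661). Without both WT-PLN replicate 1 samples, the value of Vwf was 0.0031, while those of Nos3 and Tie1 were -0.63 and -0.58.

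In WT-PLN hearts, LV and RV samples with the same number deviated together. When genotype and number were taken as a block, 12 genes were called in place of 0, and 0 of these were markers. All 9 markers with lower values in the RV then had an unadjusted p of at most 0.05 (14.4% of all genes on that side), with adjusted p from 0.131 for Tie1 to 0.311 for Fabp4. Within the 3 numbered pairs, each of these 9 genes was lower in the RV in 3 of 3 pairs (58.1% of all genes), and Vwf was lower in 1 of 3.

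The mitochondrially encoded share was 44.0% to 47.3% in LV WT-PLN and 48.7% to 52.7% in RV WT-PLN, so the ventricles did not overlap in it, and the median log2 fold change of all genes was -0.17. The median of the 10 markers was -0.41. After upper quartile scaling, which moved the median of all genes to -0.0072, the median of the markers was -0.22 and 9 of 10 were still below 0. In that setting 4 of 10 were lower at an unadjusted p of at most 0.05, Tie1, Nos3, Pecam1 and Tek (5.98% of all genes). With TPM rescaled without mitochondrially encoded genes, these medians were -0.059 for all genes and -0.29 for the markers. The part of the mitochondrial share in the lower values was not tested beyond this rescaling. Markers of other cell types also had lower values in the RV, where 85.9% of all genes were below 0. This held for 9 of 9 markers of pericytes and smooth muscle (median log2 fold change -0.40), with sums of 188 to 415 TPM in the LV and 161 to 204 TPM in the RV. It held for 5 of 5 red cell genes (median -0.40), 6 of 7 fibroblast genes (-0.28) and 7 of 8 macrophage genes (-0.23). Of 9 cardiomyocyte markers 5 were below 0, with a median of -0.00065. Of the 9, 2 were lower at an unadjusted p of at most 0.05 (13.8% of all genes), Actc1 at -0.40 and Myl3 at -0.35. The part of these cell types in the lower endothelial values was not tested.

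**Figure D2:**
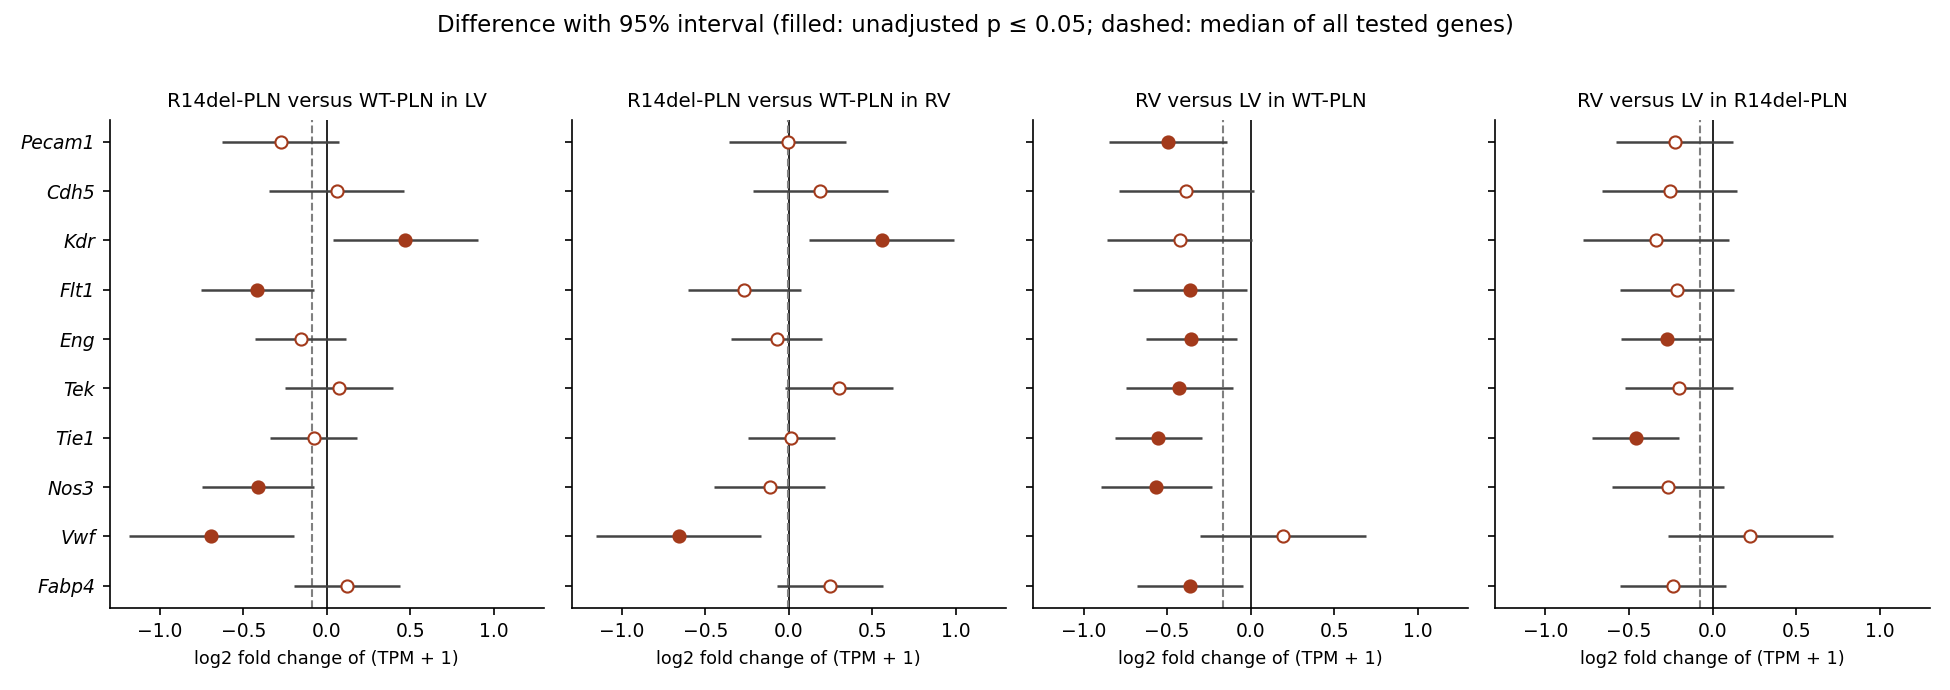
Log2 fold change of TPM + 1 with its 95% interval (horizontal axes) for the 10 endothelial marker genes (rows) in 4 comparisons; filled points have an unadjusted p of at most 0.05, the dashed line is the median of all 12526 genes tested, and no gene shown passed the adjusted threshold. In WT-PLN hearts 9 of 10 genes lay below 0 in the RV, and Kdr lay above 0 and Vwf below 0 in R14del-PLN hearts in both ventricles.

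In R14del-PLN hearts, all 10 markers kept the sign of the ventricle difference in WT-PLN hearts. The values were smaller in size for the 9 with lower levels in the RV, while Vwf was at 0.23. None passed the test, which called 0 of all genes (0%) with 823 genes at an unadjusted p of at most 0.05. At that unadjusted threshold 2 of 10 markers were lower in the RV, Tie1 and Eng (6.07% of all genes). Eng lay close to the threshold, at an unadjusted p of 0.049. Tie1 alone was left with upper quartile scaling (4.41% of all genes), quantile normalization (4.32%) or the block of genotype and number (5.93%). The same held without LV R14del-PLN replicate 2 (6.05%) or 3 (2.34%), and without RV R14del-PLN replicate 1 (6.94%) or 3 (3.27%). Groups that did not overlap were found for 3 of 10, Tie1, Eng and Nos3 (8.72% of all genes), and values below 0 for 9 of 10 (70.3% of all genes). Tie1 was at 13.6, 14.8 and 16.1 TPM in LV R14del-PLN and 10.6, 11.4 and 9.49 TPM in RV R14del-PLN, with a log2 fold change of -0.46 (SE 0.12, unadjusted p = 0.0021, adjusted p = 0.711). Its means in the LV were 15.7 ± 1.5 TPM in WT-PLN and 14.8 ± 1.3 TPM in R14del-PLN hearts, and in the RV they were 10.4 ± 0.66 and 10.5 ± 0.97 TPM (SD, n = 3 each). Eng was at 37.0, 36.1 and 36.2 TPM in the LV and at 31.3, 30.4 and 28.3 TPM in the RV (log2 fold change -0.27, SE 0.13, adjusted p = 0.756). RV R14del-PLN replicate 2 was the highest RV sample for 7 of the markers, among them Kdr at 20.1 TPM against 10.6 and 12.8 TPM. This is the RV sample of its group with high atrial markers. Without it, 6 of 10 markers were lower at an unadjusted p of at most 0.05 (5.86% of all genes), namely Cdh5, Kdr, Flt1, Tek, Tie1 and Fabp4, and the median of the markers was -0.34 in place of -0.25, as it was without all 3 samples with high atrial markers. The median moved the other way in other settings, to -0.15 without LV R14del-PLN replicate 3, -0.15 with upper quartile scaling and -0.086 with TPM rescaled without mitochondrially encoded genes. The medians of all genes in these settings were 0.024, 0.0030 and 0.057, compared with -0.076 as measured.

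Whether the difference between ventricles depended on genotype was tested as an interaction. It was above 0 for 10 of 10 markers, as it was for 74.3% of all genes, and ranged from 0.033 for Vwf to 0.30 for Nos3. No marker and 0 of all genes (0%) were called, with 0 markers and 127 genes at an unadjusted p of at most 0.05. The 95% interval for Nos3 was -0.18 to 0.77 and that for Pecam1 was -0.23 to 0.77, so neither a smaller ventricle difference in R14del-PLN hearts nor an equal one could be told at this number of samples. The comparisons of the ventricles and of the genotypes share the same 4 groups of samples and are not independent of each other.

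The comparison of R14del-PLN with WT-PLN hearts asks what the mutation changes in each ventricle. No endothelial marker passed the test in the LV, where 65 of all genes were called (0.519%, 12 higher and 53 lower), or in the RV, where 34 were called (0.271%, 9 higher and 25 lower). In both ventricles Kdr had higher values and Vwf lower values in R14del-PLN hearts, each with an unadjusted p of at most 0.05, and Flt1 and Nos3 had lower values at that threshold in the LV. In the LV, that made 1 marker of 10 higher (1.76% of all genes) and 3 of 10 lower (7.85% of all genes). In the RV, 1 of 10 was higher (2.82% of all genes) and 1 of 10 was lower (3.4% of all genes). The other differences had an unadjusted p above 0.05. These counts rested on single samples. In the LV, Vwf was the only marker at that threshold without LV WT-PLN replicate 2, and Kdr the only one without LV WT-PLN replicate 3. It was Kdr and Vwf without LV R14del-PLN replicate 1, and Flt1 and Vwf without replicate 2. Without LV R14del-PLN replicate 3 it was lower markers alone, 4 of 10 (17.8% of all genes on that side). The same held without LV WT-PLN replicate 1, with 5 of 10 (13.2% of all genes on that side). In the RV, Vwf alone was left without WT-PLN replicate 1 or 2, Flt1 alone without R14del-PLN replicate 2, and Tek was added without R14del-PLN replicate 3.

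Kdr was at 12.2, 11.9 and 14.1 TPM in LV WT-PLN and at 15.6, 18.2 and 20.6 TPM in LV R14del-PLN. Every mutant sample lay above every control, which held for this 1 marker of 10 in the LV (2.48% of all genes), and the log2 fold change was 0.47 (SE 0.20, unadjusted p = 0.0364, adjusted p = 0.468). The RV values of Kdr were 8.12, 8.43 and 11.4 TPM in WT-PLN and 10.6, 20.1 and 12.8 TPM in R14del-PLN hearts. The groups overlapped, replicate 2 stood well above the others, and the log2 fold change was 0.56 (SE 0.20, unadjusted p = 0.016, adjusted p = 0.558), or 0.31 without that sample. Over all alternative settings the value for Kdr in the RV ranged from 0.25 to 0.74, and the adjusted p was at least 0.135.

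Flt1 ran the other way from Kdr. It was at 19.6, 25.2 and 24.5 TPM in LV WT-PLN and 15.6, 16.8 and 18.6 TPM in LV R14del-PLN, and the groups did not overlap. The log2 fold change was -0.42 (SE 0.16, unadjusted p = 0.0204, adjusted p = 0.388). The RV values of Flt1 were 15.1, 19.4 and 18.8 TPM in WT-PLN and 12.7, 18.2 and 13.2 TPM in R14del-PLN hearts, with overlapping groups and a log2 fold change of -0.27 (SE 0.16, adjusted p = 0.962).

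Because both VEGF receptors were measured in the same sample, their ratio does not depend on the scale of that sample. The ratio of Kdr to Flt1 was 0.624, 0.474 and 0.577 in LV WT-PLN and 0.538, 0.435 and 0.608 in RV WT-PLN. It was 0.999, 1.08 and 1.11 in LV R14del-PLN and 0.834, 1.11 and 0.971 in RV R14del-PLN. Each of the 6 R14del-PLN samples lay above each of the 6 WT-PLN samples. The means were 0.558 ± 0.0767 and 1.06 ± 0.0560 in the LV, and 0.527 ± 0.0872 and 0.971 ± 0.137 in the RV (SD, n = 3 each). Cdh5 relative to Pecam1 was at 0.741 to 0.804 in the LV of WT-PLN and 0.964 to 0.994 in the LV of R14del-PLN hearts, while the RV groups, at 0.793 to 0.870 and 0.842 to 1.05, overlapped. Ratios of Tek to Tie1, Nos3 to Pecam1 and Vwf to Pecam1 were also formed, and each overlapped between genotypes in the LV. In the RV, Nos3 to Pecam1 and Vwf to Pecam1 overlapped, and Tek to Tie1 did not (0.615 to 0.690 in WT-PLN, 0.770 to 0.929 in R14del-PLN). These ratios were chosen after the values were seen and are a description without a test. How often other pairs of genes separate in this way was not determined, and LV and RV samples of a genotype may share mice.

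**Figure D3:**
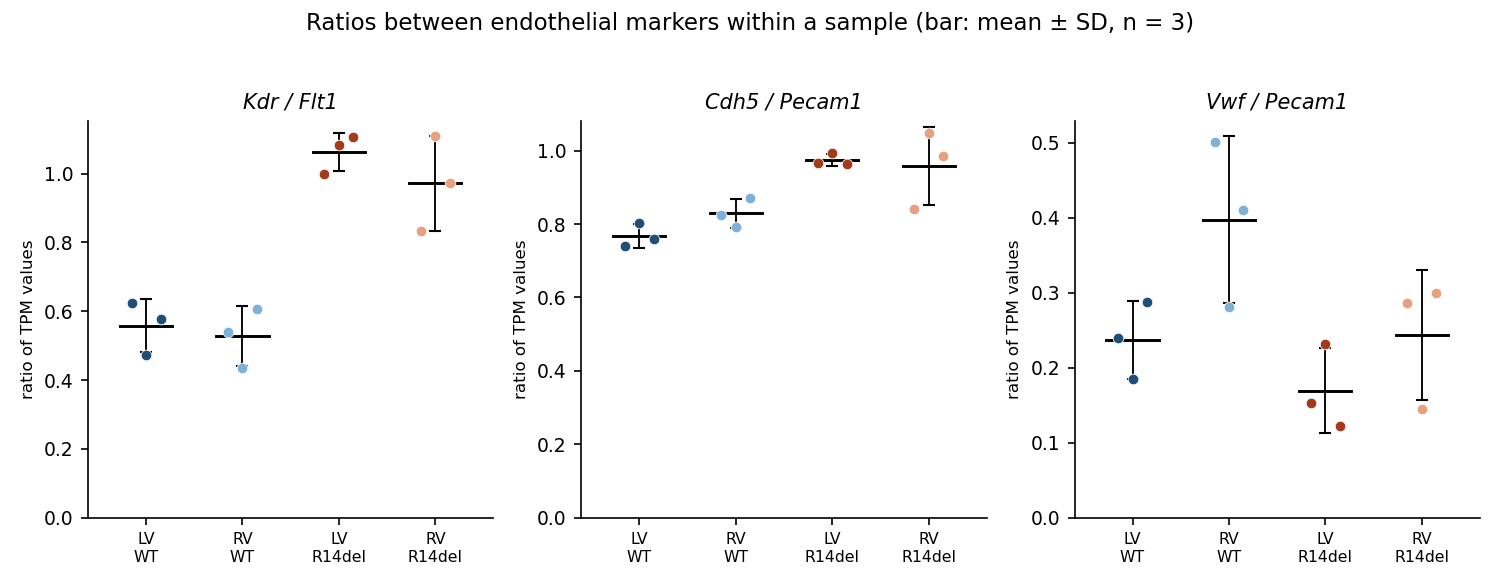
Ratios of TPM (vertical axes, from 0) between pairs of endothelial markers within each sample, by ventricle and genotype; points are samples, bars the mean and SD of 3 samples. Kdr to Flt1 was at 0.435 to 0.624 in the 6 WT-PLN samples and at 0.834 to 1.11 in the 6 R14del-PLN samples.

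Vwf was at 7.44, 7.73 and 11.8 TPM in LV WT-PLN and at 4.04, 7.10 and 4.50 TPM in LV R14del-PLN. The groups did not overlap, as was the case for 2 of 10 markers on the lower side in the LV, Vwf and Flt1 (8.47% of all genes), and the log2 fold change was -0.69 (SE 0.23, unadjusted p = 0.00991, adjusted p = 0.292). The RV values of Vwf were 11.6, 8.08 and 11.4 TPM in WT-PLN and 7.18, 4.46 and 7.06 TPM in R14del-PLN hearts. Here too the groups did not overlap, for this 1 marker of 10 on the lower side (5.79% of all genes), and the log2 fold change was -0.66 (SE 0.23, unadjusted p = 0.0131, adjusted p = 0.537). Vwf is also made by megakaryocytes, and 5 platelet markers summed to 8.81 to 32.8 TPM in WT-PLN and 7.78 to 19.4 TPM in R14del-PLN hearts. Of these, 3 were tested. In the LV 3 of 3 were below 0 in R14del-PLN hearts (71.7% of all genes), with a median log2 fold change of -0.33. In the RV 1 of 3 was below 0 (50.9% of all genes), with a median of 0.11. With an unadjusted p of at most 0.05 there were 0 in either ventricle. Over all genes these shares were 7.85% lower and 1.76% higher in the LV, and 3.4% and 2.82% in the RV. The part of these cells in the values of Vwf was not tested.

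Nos3 was at 4.76, 6.75 and 7.25 TPM in LV WT-PLN and 4.14, 4.27 and 4.77 TPM in LV R14del-PLN. The lowest control sample, replicate 1, lay just below the highest mutant sample, and the log2 fold change was -0.41 (SE 0.16, unadjusted p = 0.0196, adjusted p = 0.382). Without both WT-PLN replicate 1 samples it was -0.57 with an adjusted p of 0.0763, the smallest of any marker in any setting. In the RV, Nos3 was at 3.26, 4.67 and 3.71 TPM in WT-PLN and 3.79, 3.54 and 3.13 TPM in R14del-PLN hearts, with a log2 fold change of -0.11 (95% interval -0.45 to 0.22, adjusted p = 1).

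Tek and Fabp4 were the markers whose RV values in R14del-PLN hearts all lay above those in WT-PLN hearts, 2 of 10 (5.19% of all genes). Tek was at 6.65, 6.71 and 7.11 TPM in RV WT-PLN and 8.14, 10.6 and 7.41 TPM in RV R14del-PLN (log2 fold change 0.30, SE 0.15, unadjusted p = 0.0657, adjusted p = 0.855). In the LV the groups overlapped at 8.45, 10.1 and 10.1 TPM and 8.40, 10.3 and 11.8 TPM, with a log2 fold change of 0.074 (SE 0.15, adjusted p = 0.930). Fabp4 was at 345.7, 325.3 and 364.6 TPM in RV WT-PLN and 379.7, 478.5 and 378.8 TPM in RV R14del-PLN (log2 fold change 0.25, SE 0.15, adjusted p = 0.962). In the LV it was at 458.5, 452.5 and 419.2 TPM and at 398.4, 475.1 and 593.9 TPM, with the highest value in replicate 3, which also had the lowest mitochondrial share (log2 fold change 0.12, SE 0.15, adjusted p = 0.862). RV R14del-PLN replicate 2 was the highest RV sample of both genes, and without it the RV values were 0.17 for Tek and 0.14 for Fabp4. Of adipocyte markers, 6 summed to 2.82 to 22.8 TPM over the 12 samples, and their part in the values of Fabp4 was not tested.

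Pecam1, Cdh5, Tie1 and Eng overlapped between genotypes in both ventricles. Pecam1 was at 26.3, 30.6 and 36.8 TPM in LV R14del-PLN and 25.0, 30.8 and 23.5 TPM in RV R14del-PLN, with log2 fold changes of -0.28 (95% interval -0.63 to 0.076) and -0.0072 (95% interval -0.36 to 0.34). Cdh5 was at 25.4, 30.4 and 35.5 TPM and at 21.1, 32.3 and 23.2 TPM in the same groups, with log2 fold changes of 0.059 in the LV and 0.19 in the RV. For Tie1 the 95% interval of the log2 fold change was -0.34 to 0.18 in the LV and -0.25 to 0.28 in the RV. Over the 10 markers the median log2 fold change was -0.12 in the LV and 0.0037 in the RV, compared with -0.086 and -0.0034 over all genes.

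Other cell types were set beside these values. Summed red cell markers, mainly globins, were at 2087 to 2316 TPM in LV WT-PLN and 1093 to 2142 TPM in LV R14del-PLN, and at 1461 to 1736 and 956 to 1368 TPM in the RV. Of 5 red cell genes, 4 in the LV (7.85% of all genes) and 3 in the RV (3.4%) were lower in R14del-PLN hearts at an unadjusted p of at most 0.05. The median log2 fold changes of the 5 genes were -0.62 and -0.59. The median log2 fold changes between genotypes were -0.031 in the LV and 0.016 in the RV for cardiomyocyte markers, -0.35 and -0.14 for fibroblast markers, -0.071 and 0.17 for pericyte and smooth muscle markers, and -0.15 and -0.033 for macrophage markers. None of these lists had a called gene or a gene at 0 TPM in all samples, and their part in the endothelial values was not tested.

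The wider endothelial programme was read from 8 lists of 73 genes around the markers, of which 69 were tested. None was called higher, and 1 was called lower, in the LV. At an unadjusted p of at most 0.05, 1 was higher there (1.76% of all genes) and 13 were lower (7.85% of all genes). In the RV 0 were called, with 5 higher (2.82% of all genes) and 4 lower (3.4% of all genes) at that threshold. Between ventricles 0 were called in either genotype. At the unadjusted threshold, the RV of WT-PLN hearts had 25 lower (13.8% of all genes) and 1 higher (0.655%), and that of R14del-PLN hearts had 10 lower (6.07%) and 1 higher (0.503%). Their median log2 fold change between ventricles was -0.30 for WT-PLN hearts, with -0.15 for R14del-PLN hearts.

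Around the VEGF receptors, 9 genes were tested, from ligands to neuropilins. Pgf, the placental growth factor that binds Flt1 but not Kdr, had the smallest p, with log2 fold changes of -0.87 in the LV (SE 0.20, adjusted p = 0.0798) and -0.96 in the RV (SE 0.20, adjusted p = 0.0741). It narrowly missed the threshold in both. Vegfa, the main ligand of both receptors, had values of 0.00083 and 0.30, and Nrp1, a co-receptor of Kdr, of 0.36 and 0.42, none of which passed. Without RV R14del-PLN replicate 2, the RV values were 0.079 for Vegfa and 0.20 for Nrp1, and without LV R14del-PLN replicate 3 the LV values were -0.17 and 0.21. All 9 genes of the list were below 0 in the RV compared with the LV in each genotype (all genes: 85.9% for WT-PLN, 70.3% for R14del-PLN), with Vegfc, a ligand of lymphatic vessels, at -0.55 in WT-PLN hearts (adjusted p = 0.226).

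Around Tek and Tie1, 3 genes were tested. Angpt1, the activating ligand of Tek, had higher mean values in the RV in both genotypes, with log2 fold changes of 0.70 in WT-PLN (SE 0.26, adjusted p = 0.294) and 0.57 in R14del-PLN hearts (SE 0.26, adjusted p = 0.751). In R14del-PLN hearts it was at 5.23, 7.05 and 5.45 TPM in the LV and 15.8, 7.12 and 6.80 TPM in the RV. The groups overlapped, and without RV replicate 1 the log2 fold change was 0.21. Of 11 genes of endoglin and ALK1 signalling, 10 in the LV were below 0 in R14del-PLN hearts (71.7% of all genes) and 5 of these had an unadjusted p of at most 0.05 (7.85% of all genes). The smallest p belonged to Id1, a target gene of BMP receptors, at -0.69 (SE 0.19, adjusted p = 0.193), and in the RV Id1 was at -0.53 (adjusted p = 0.549).

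Around Cdh5 and Pecam1, 8 junction genes were tested. Esam, an adhesion molecule of endothelial tight junctions, was at -0.50 in the LV of R14del-PLN hearts (SE 0.16, adjusted p = 0.278) and at -0.59 in the RV compared with the LV of WT-PLN hearts (adjusted p = 0.217). Between genotypes in the RV, Pcdh12 had the smallest p of the list, at 0.37 (adjusted p = 0.784). Of the 8 genes, 6 in the LV (71.7% of all genes) and 5 in the RV (50.9% of all genes) were below 0 between genotypes. Of 10 genes of nitric oxide synthesis and response, 0 in the LV had an unadjusted p of at most 0.05 between genotypes (all genes: 7.85% lower, 1.76% higher). In the RV 1 was higher at that threshold (2.82% of all genes), Cav1, the caveolin that binds and restrains Nos3. Cav1 was at 0.36 (SE 0.16, adjusted p = 0.793), and at 0.21 without RV R14del-PLN replicate 2. Between the ventricles of WT-PLN hearts all 10 were below 0 in the RV (85.9% of all genes). Nostrin, which binds the synthase and moves it from the membrane, was at -0.43 in that comparison (adjusted p = 0.294). Of 5 partners of Vwf and its storage granule, 0 had an unadjusted p of at most 0.05 between genotypes in either ventricle. Over all genes, 7.85% were lower and 1.76% higher at that threshold in the LV, and 3.4% and 2.82% in the RV. Whether Vwf differed from these partners was not tested. Cd63, a membrane protein of that granule and of lysosomes, was at -0.56 in the RV of WT-PLN hearts (adjusted p = 0.217), where Vwf was at 0.19.

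Of 9 genes of endothelial fatty acid handling, Meox2, a transcription factor of capillary endothelium that with Tcf15 drives fatty acid uptake, had the smallest p between genotypes. It was at 0.45 in the LV (SE 0.15, adjusted p = 0.281) and 0.59 in the RV (SE 0.15, adjusted p = 0.165) of R14del-PLN hearts. Of the 9 genes, 7 in the LV (71.7% of all genes) and 4 in the RV (50.9% of all genes) were below 0 between genotypes. Tcf15 was at 8.73 to 9.86 TPM in LV WT-PLN and 6.39 to 8.02 TPM in LV R14del-PLN. In the RV it was at 5.47 to 6.29 TPM and 3.91 to 5.97 TPM. Fabp5, another fatty acid binding protein of endothelium, was at -0.51 in the RV of WT-PLN and -0.59 in the RV of R14del-PLN hearts, compared with the LV (adjusted p = 0.266 and 0.711).

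Among 15 endothelial transcription factors, Klf2, a factor that blood flow induces and that drives Nos3, was the gene called in the LV. It was at 16.0, 25.9 and 38.9 TPM in LV WT-PLN and fell to 8.16, 9.11 and 9.23 TPM in LV R14del-PLN (log2 fold change -1.42, SE 0.27, adjusted p = 0.0335). In the RV it was at 12.9, 17.5 and 25.0 TPM and at 7.11, 5.26 and 6.83 TPM, with non-overlapping groups and an adjusted p of 0.0652 (log2 fold change -1.36). The control samples spread far more widely than the mutant ones. The call in the LV was lost without LV WT-PLN replicate 2 or 3, without any 1 of the LV R14del-PLN samples, without the 3 samples with high atrial markers and with no filter, at an adjusted p of up to 0.161.

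Markers of endothelial subsets were read in the same way. Of 6 capillary genes, Rgcc, a cell cycle regulator high in heart capillaries, was called lower in both ventricles. It was at 42.0, 40.3 and 37.2 TPM in LV WT-PLN and fell to 13.3, 14.1 and 16.1 TPM in LV R14del-PLN (log2 fold change -1.40, SE 0.13, adjusted p = 0.000137). In the RV it fell from 26.7, 26.7 and 20.7 TPM to 9.86, 8.74 and 10.8 TPM (log2 fold change -1.24, SE 0.13, adjusted p = 0.000483). Rgcc kept both calls in all 19 alternatives of each ventricle. The other 5 capillary genes were not called in either ventricle. Aqp1, a water channel of capillary endothelium and red cells, was at -0.60 in the LV (SE 0.16, adjusted p = 0.189) and -0.51 in the RV (SE 0.16, adjusted p = 0.434). Aqp7, a channel for glycerol, was at 0.46 in the LV (SE 0.19, adjusted p = 0.461) and 0.58 in the RV (SE 0.19, adjusted p = 0.482), each with an unadjusted p of at most 0.05, as for Aqp1. Car4, a carbonic anhydrase of the capillary surface, was at -0.17 and -0.031.

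The 3 venous genes tested did not share a direction between genotypes. In the LV, 2 of 3 were below 0 in R14del-PLN hearts (71.7% of all genes), with a median log2 fold change of -0.065. Of these, 1 had an unadjusted p of at most 0.05 (7.85% of all genes). In the RV, 1 of 3 was below 0 (50.9% of all genes), with a median of 0.054. Ephb4 had a lower mean in R14del-PLN hearts in both ventricles. Aplnr, the apelin receptor of veins and sprouting vessels, was called higher in both ventricles. It was at 2.68, 2.08 and 2.84 TPM in LV WT-PLN and rose to 5.56, 6.68 and 6.11 TPM in LV R14del-PLN (log2 fold change 1.01, SE 0.17, adjusted p = 0.0170). In the RV it rose from 1.49, 1.06 and 1.71 TPM to 3.88, 5.28 and 3.15 TPM (log2 fold change 1.06, SE 0.17, adjusted p = 0.0154). These calls were lost with no filter, and without LV WT-PLN replicate 2 or LV R14del-PLN replicate 1 or 2 in the LV (adjusted p up to 0.0983). In the RV they were lost without RV WT-PLN replicate 2, without RV R14del-PLN replicate 2, without the 3 samples with high atrial markers and in a fit of the RV samples alone (adjusted p up to 0.216). Of 6 arterial genes, 0 were called, and Sox17, an arterial transcription factor, was the nearest in the LV at -0.84 (SE 0.18, adjusted p = 0.0725). Of the 6, 5 were below 0 in the LV (71.7% of all genes) and 3 in the RV (50.9% of all genes), with medians of -0.35 and -0.044. In the RV Sox17 overlapped between genotypes, at 3.85 to 5.46 TPM in WT-PLN and 2.99 to 4.78 TPM in R14del-PLN hearts. The smallest p there belonged to Efnb2, at 0.29 (adjusted p = 0.82). Of 6 lymphatic genes, 0 were called, and Prox1, the factor that sets lymphatic identity but is also expressed in cardiomyocytes, was at 0.59 in the LV and 0.55 in the RV. The list mostly went the other way in the LV, where 5 of 6 were below 0 (71.7% of all genes). Of these, 2 had an unadjusted p of at most 0.05 (7.85% of all genes). In the RV 4 of 6 were below 0 (50.9% of all genes). Of 5 endocardial genes, 0 were called, and Cytl1 was at -1.74 in the LV (SE 0.52, adjusted p = 0.235). It was at 8.88, 9.25 and 42.6 TPM in LV WT-PLN and 2.56, 4.66 and 4.85 TPM in LV R14del-PLN, and without LV WT-PLN replicate 3, one of the samples with high atrial markers, the log2 fold change was -1.04.

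**Figure D4:**
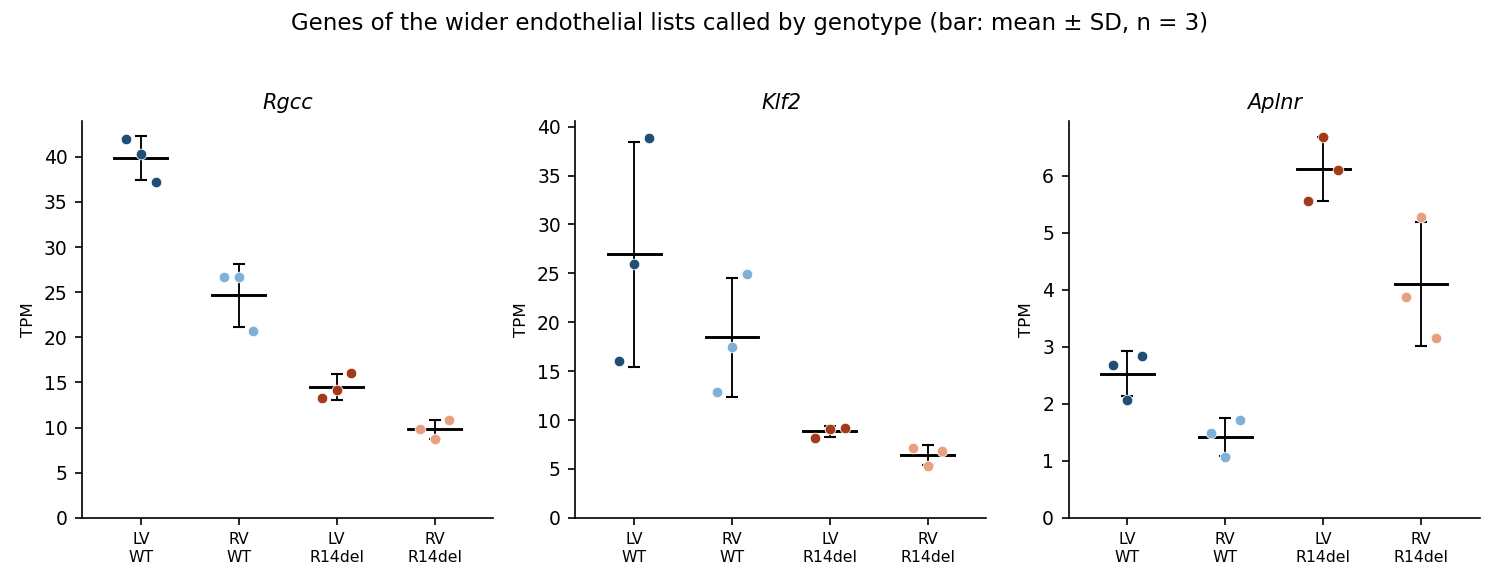
TPM (vertical axes, from 0) of the 3 genes of the wider endothelial lists that were called between genotypes, by ventricle and genotype; points are samples, bars the mean and SD of 3 samples. Rgcc was at 20.7 to 42.0 TPM in WT-PLN and 8.74 to 16.1 TPM in R14del-PLN samples, Klf2 was called in the LV alone, and Aplnr was at 1.06 to 2.84 TPM in WT-PLN and 3.15 to 6.68 TPM in R14del-PLN samples.

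How the markers varied together within groups was described by correlating, over the 12 samples, the deviations of each gene from its 4 group means. These points share the scale of each sample, and no test was made. Pecam1, Cdh5, Flt1, Tek and Tie1 varied most closely, with Pearson's r from 0.82 to 0.96 and a median of 0.89 over 10 pairs. Over the 36 pairs of the 9 markers without Vwf, r ranged from -0.10 to 0.96 with a median of 0.70. Nos3 and Eng varied together (r = 0.83) and were nearly unrelated to Kdr (0.12 and 0.20) and Fabp4 (0.019 and -0.10). Vwf was the least related to the others, at r from -0.33 to 0.23.

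**Figure D5:**
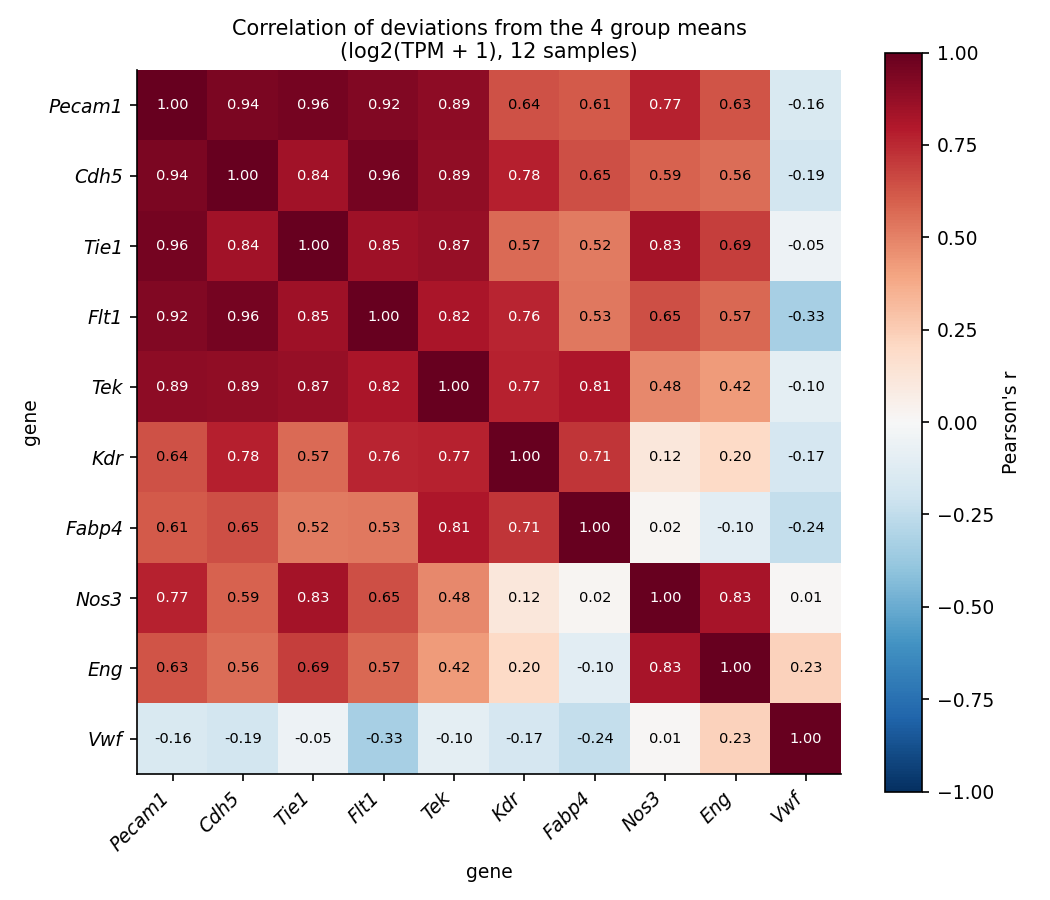
Pearson's r between pairs of the 10 endothelial marker genes (rows and columns), computed on deviations of log2(TPM + 1) from the 4 group means over 12 samples; the colour scale runs from -1 to 1. Pecam1, Cdh5, Tie1, Flt1 and Tek form a block at 0.82 to 0.96, and Vwf lies between -0.33 and 0.23 with the other 9 genes.

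The genes most like the mean of the standardised markers over the 12 samples were Ptrf (r = 0.986), Mprip (0.974), Pip5k1c (0.970), Vtn (0.969) and Nrp2 (0.966). In all, 214 other genes had an r of at least 0.9. The r of the markers themselves with their mean ran from -0.11 for Vwf and 0.58 for Kdr to 0.97 for Pecam1. On deviations from the group means, the nearest genes were Btbd19 (0.987), Map4k4 (0.985), Plod2 (0.984), Dcbld2 (0.983) and Ap1g1 (0.983), and 757 other genes reached 0.9.

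In the GRCm38 annotation, the markers lie in separate regions of the genome. Pecam1 spans chr11:106654217-106750628, Cdh5 chr8:104101625-104144511, Kdr chr5:75932827-75978458, Flt1 chr5:147561604-147726011 and Tek chr4:94739289-94874976. Tie1 spans chr4:118471191-118490061, Eng chr2:32646595-32682669, Nos3 chr5:24364810-24384474, Vwf chr6:125546774-125686679 and Fabp4 chr3:10204088-10208576. Their longest coding transcripts range from 896 bases in 4 exons for Fabp4 to 8834 bases in 52 exons for Vwf. No near-identical copy of a coding transcript of any of the 10 genes was found. Cdh5 overlaps an antisense transcript, Nos3 overlaps Atg9b (mean 0.438 TPM) and Eng overlaps Fpgs (mean 2.22 TPM), each on the opposite strand. The libraries were stranded, but whether reads were counted by strand is not stated, so the values of these 3 genes can include reads of their neighbours.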

How the data were processed

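RNA from the LV and RV of flash-frozen hearts was sequenced from polyA stranded libraries, with 3 samples in each of 4 groups. The authors deposited TPM values for 33641 genes per sample. The study names CLC Genomics Workbench (v 20.0.2) for mapping to GRCm38. The program, annotation and strand setting behind the TPM are not given in the sources used here. TPM hold no read depth, so neither counting intervals nor detection limits could be given, and the number of samples limits the precision.

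Genotype, ventricle and number were taken from sample titles. Differences were tested with limma 3.58.1 (R 4.3.3; eBayes, prior variance as a trend of intensity) on log2(TPM + 1), in 1 model of 12 samples and 4 group means with 8 residual and 5.15 prior degrees of freedom, over the 12526 genes whose mean reached 0.5 TPM. Such fold changes understate the change of low genes. P-values were adjusted by Benjamini-Hochberg over all genes, and a gene was called when adjusted p was 0.05 or less and the fold 1.5 or more. Between LV and RV samples with the same number, deviations from the group means correlated at 0.658, 0.321 and 0.457 in WT-PLN and 0.389, 0.230 and 0.0542 in R14del-PLN hearts, so the numbers were read as pairs (every r above 0.1) in WT-PLN alone. Between genotypes the correlations were -0.021, 0.156 and 0.092 in the LV and 0.061, 0.219 and 0.133 in the RV. Some of these also lay above 0.1, although samples of different genotypes share no mouse, so the limit does not establish which samples are paired.

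The members and lists were chosen with earlier results of these data known. Named were all 10 markers, each listed gene called in any test, otherwise genes of a list chosen by the smallest p in a comparison, and the 5 genes most correlated with the mean marker on each scale. Vegfa, Nrp1, Car4, Aqp1, Aqp7, Actc1 and Myl3 were named in addition, after their values were seen. Near-identical copies were searched with BLAST 2.17.0 with limits of 95% identity and 80% coverage. Python 3.11.15 with numpy 2.4.6, pandas 2.3.3 and matplotlib 3.10.9 was used for other steps. Alternatives were pseudocounts of 0.5 and 0.1, no filter or a filter at 5 TPM, 3 other scalings, no intensity trend, replicate blocks, array weights, each sample left out, both WT-PLN replicate 1 samples left out and fits of the compared groups alone. Leaving out the 3 samples with summed atrial markers above 100 TPM was added after the values were seen.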

Additional observations from a re-analysis of the deposited data

How the results depend on the processing

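No marker was called in any of the 5 comparisons under any alternative, and of 995 alternative values for the 10 markers 954 kept their direction. The rest concerned 12 small differences that changed sign. In the LV between genotypes, Tie1 was at 0.036 with upper quartile scaling and 0.026 with quantile normalization, and without both WT-PLN replicate 1 samples Cdh5 was at -0.10 and Tek at -0.0028. With a sample left out, Cdh5 there ranged from -0.10 to 0.18, Tek from -0.029 to 0.19 and Fabp4 from -0.026 to 0.26. In the RV between genotypes, Pecam1 was at 0.035 without mitochondrially encoded genes, 0.018 with upper quartile scaling and 0.029 with quantile normalization, and Tie1 was at -0.033 without both WT-PLN replicate 1 samples and -0.0085 without the 3 samples with high atrial markers. With a sample left out, Pecam1 there ranged from -0.12 to 0.070 and Tie1 from -0.043 to 0.079. The interaction changed sign for Cdh5 (-0.068), Kdr (-0.29), Eng (-0.0068) and Vwf (-0.12) without the samples with high atrial markers, for Kdr (-0.038) and Vwf (-0.12) with array weights, for Eng (-0.011) and Vwf (-0.059) with upper quartile scaling and for Vwf (-0.066) with quantile normalization. With a sample left out, it ranged from -0.045 to 0.29 for Cdh5, -0.16 to 0.27 for Kdr, -0.0027 to 0.26 for Flt1, -0.0038 to 0.22 for Eng, -0.16 to 0.24 for Vwf and -0.013 to 0.27 for Fabp4. The cause of these changes was not tested. The count of all genes called moved more. In the LV between genotypes it went from 65 to 22 with no filter, 99 with upper quartile scaling, 104 with quantile normalization and 230 without both WT-PLN replicate 1 samples, and from 19 to 153 with a sample left out, the most without LV WT-PLN replicate 1. In the RV it went from 34 to 17 with no filter, 73 without mitochondrially encoded genes, 87 with upper quartile scaling, 85 with quantile normalization, 88 without both WT-PLN replicate 1 samples and 15 without the samples with high atrial markers, and from 14 to 39 with a sample left out. With the number as a replicate block, 119 genes in the LV and 62 in the RV were called, although the numbers share no source between genotypes, and the block of genotype and number called 12 genes between the ventricles of WT-PLN hearts in place of 0. No block changed the call of a marker. Between the ventricles of WT-PLN hearts, 1 gene was called with no filter, 2 without mitochondrially encoded genes, 2 without both WT-PLN replicate 1 samples, 1 with the compared groups alone and 0 to 3 with a sample left out. In R14del-PLN hearts it was 1 without the samples with high atrial markers and 0 to 1 with a sample left out, and for the interaction 0 to 2 with a sample left out. The called genes were 12 higher and 53 lower in the LV, but 35 and 64 with upper quartile scaling and 39 and 65 with quantile normalization, and in the RV 9 and 25, but 31 and 42 without mitochondrially encoded genes and 32 and 55 with upper quartile scaling. Depth is unknown and sets no stated limit.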
